A study of Arabidopsis thaliana with 18 samples.

Results

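AUR1, AUR2, PRL, HTB1 and HTB2, 5 genes of cell division, were followed through seed filling in Arabidopsis thaliana. They were chosen by name, as every probe set that the platform annotation gives to one of these genes alone. Each gene had 1 probe set, so that 5 probe sets of 19755 tested are described, of which 11763 had a single named gene. The loci are AT4G32830 for AUR1, AT2G25880 for AUR2, AT4G02060 for PRL, AT1G07790 for HTB1 and AT5G22880 for HTB2.

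The seeds came from C24 and Col-0, both natural accessions with no transgene or treatment named in the labels, and were taken 8-9, 10-11 and 12-13 days after flowers opened. Each of the 6 groups of accession and stage held 3 arrays. An array holds a pool of seeds out of 48 siliques, to which 6 plants gave 8 each, and the 2 experiments had 6 plants per accession each. Pools of an accession therefore shared plants, and a p-value here reflects variation among pools only.

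Aurora kinases are serine/threonine kinases that phosphorylate histone H3 and spindle proteins during mitosis, and AUR1 and AUR2 form the plant alpha group that acts on the spindle and the cell plate. PRL, also named PROLIFERA or MCM7, is a subunit of the ring-shaped MCM helicase that unwinds DNA at replication forks. HTB1 and HTB2 encode histone H2B, a core histone that dividing cells need in quantity to package new DNA. In a young seed the embryo, the endosperm and the seed coat all pass through phases of division before cells turn to expansion and storage.

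The values are the authors' log2 levels. On the single arrays the 25th percentile ranged over 4.41 to 4.57, and a level near it is not shown to lie above background. The correlation between arrays was 0.992 to 0.997 within groups. The first principal component over all probe sets, which held 73.2% of the variance, ordered the arrays by stage. At 10-11 days the C24 arrays lay at 22.1 to 27.4 on it and the Col-0 arrays at -1.14 to 15.7, with the 12-13 day arrays of both accessions at 57.7 to 62.0 and the 8-9 day arrays between -83.7 and -68.9. Of 9 seed coat genes on a list only BAN, DFR, AT3G50990 and ARA12 were annotated. Their mean level per array was 9.75 to 10.2 at 8-9, 8.03 to 8.22 at 10-11 and 7.85 to 7.98 at 12-13 days in C24, and 10.8 to 10.9, 8.33 to 8.58 and 7.66 to 7.87 in Col-0. The endosperm genes AGL62 and IKU2 lay below 4.41 in the mean of every group, and none of 10 embryo genes on a list was annotated. The 3' minus 5' signal of a GAPDH control was 0.54, 0.97 and 0.57 at the 3 stages in C24 and 0.29, 0.76 and 1.21 in Col-0. That of an actin control ran 2.02, 1.78 and 1.20 in C24 and 1.89, 1.44 and 1.34 in Col-0. A second GAPDH control lay between 0.15 and 0.45 and a second actin control between 1.41 and 1.87 in all groups. The part of seed coat or RNA quality in the results was not tested.

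The level of AUR1 on the 3 C24 arrays was 8.26, 8.07 and 8.24 at 8-9 days, 5.22, 5.27 and 5.58 at 10-11 days, and 5.10, 4.81 and 5.04 at 12-13 days. In Col-0 it was 8.59, 8.67 and 8.46, then 6.27, 6.45 and 5.79, and then 5.10, 5.29 and 5.16. All arrays at 8-9 days lay above every later array in both accessions. In order of level the groups ran Col-0 and C24 at 8-9 days, Col-0 and C24 at 10-11 days, and Col-0 and C24 at 12-13 days. C24 at 10-11 days overlapped with Col-0 at 12-13 days, which overlapped with C24 at 12-13 days. Col-0 at 10-11 days overlapped with none of them.

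AUR2, the closest relative of AUR1 among the Aurora kinases, moved over a much narrower range. Its level on the C24 arrays was 7.50, 7.15 and 7.31 at 8-9 days, 6.49, 6.69 and 6.54 at 10-11 days, and 6.81, 6.62 and 6.70 at 12-13 days. The Col-0 arrays gave 7.88, 7.92 and 7.80, then 6.92, 6.91 and 6.78, and then 7.05, 6.99 and 6.98. The arrays at 8-9 days were the highest of each accession, and no other arrays of the accession reached them. Next in order came Col-0 at 12-13 and at 10-11 days, then C24 at 12-13 and at 10-11 days. Col-0 at 10-11 days overlapped with C24 at 12-13 days, which overlapped with C24 at 10-11 days. Col-0 at 12-13 days overlapped with none of them.

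PRL lay at 8.38, 8.07 and 7.93 in C24 at 8-9 days, at 5.42, 5.33 and 5.04 at 10-11 days and at 4.80, 4.78 and 4.46 at 12-13 days. In Col-0 the values were 8.47, 8.32 and 8.13, then 5.76, 6.14 and 5.50, and then 4.40, 5.19 and 4.85. The order of the groups was that of AUR1. The accessions overlapped at 8-9 and at 12-13 days but not at 10-11 days, and C24 at 10-11 days overlapped with Col-0 at 12-13 days. At 12-13 days 1 Col-0 array lay under the lowest 25th percentile of 4.41, so that the change of this helicase gene can be understated.

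HTB1 lay at 8.89, 8.94 and 9.02 in C24 at 8-9 days, at 7.85, 7.69 and 7.58 at 10-11 days and at 7.45, 7.31 and 7.30 at 12-13 days. In Col-0 it lay at 8.73, 8.64 and 8.45, at 7.29, 7.36 and 6.89, and at 7.06, 6.92 and 6.82. At each stage all 3 C24 arrays were above all 3 Col-0 arrays. In order of level the groups ran C24 and Col-0 at 8-9 days, C24 at 10-11 days, C24 at 12-13 days, and Col-0 at 10-11 and at 12-13 days. C24 at 12-13 days overlapped with Col-0 at 10-11 days, which overlapped with Col-0 at 12-13 days.

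HTB2, the other histone H2B gene, was the most scattered of the 5, with an SD within a group of 0.21 to 0.62, against 0.04 to 0.17 for AUR2. Its levels in C24 were 8.97, 8.98 and 8.60 at 8-9 days, 6.99, 5.83 and 6.0 at 10-11 days, and 5.24, 5.06 and 4.82 at 12-13 days. In Col-0 they were 9.27, 8.80 and 8.74, then 7.0, 7.29 and 6.47, and then 5.16, 4.88 and 5.49. The stages did not overlap within an accession, and the accessions overlapped at every stage. The order of the groups was that of AUR1. At 10-11 days replicate 1 of C24 lay above both other C24 arrays.

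**Figure D1:**
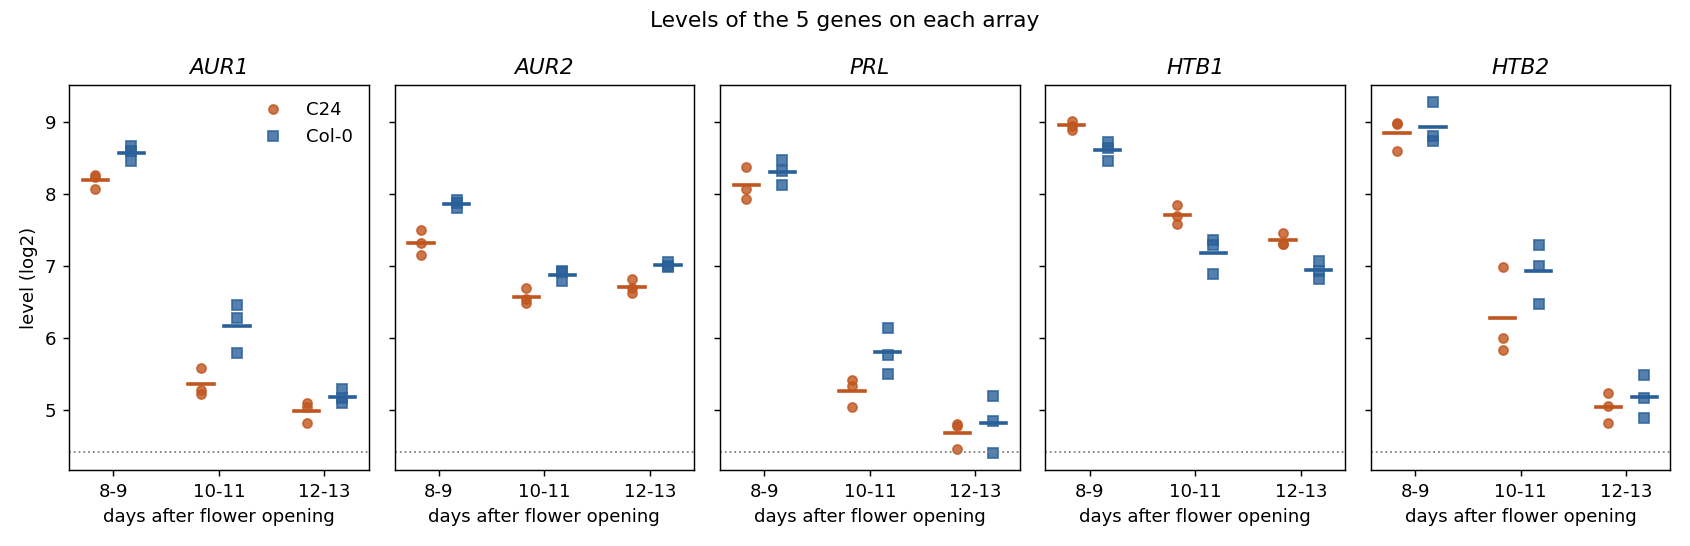
Level (log2) of AUR1, AUR2, PRL, HTB1 and HTB2 on each of the 18 arrays by days after flower opening, with C24 as circles left of Col-0 as squares, the mean of 3 arrays as a bar and the lowest 25th percentile of an array (4.41) as a dotted line. AUR1, PRL and HTB2 lie at 7.93 or higher on every array at 8-9 days and at 5.49 or lower on every array at 12-13 days, while AUR2 is at 6.49 or higher throughout.

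The comparison of stages within an accession asked how these transcripts changed while seeds grew older. From 8-9 to 12-13 days all 5 genes fell in both accessions. HTB2 fell, with changes of -3.81 ± 0.26 in C24 and -3.76 in Col-0 (log2 difference ± SE of the model, which is the same for both accessions, n = 3 arrays per group), with adjusted p = 2.47e-10 and 2.59e-10 by limma. PRL fell, with changes of -3.44 ± 0.18 in C24 and -3.50 in Col-0, and AUR1 with -3.21 ± 0.14 in C24 and -3.39 in Col-0. HTB1 fell, with changes of -1.60 ± 0.11 in C24 and -1.67 in Col-0, and AUR2 with -0.61 ± 0.09 in C24 and -0.86 in Col-0 (largest adjusted p of the 5 genes 7.83e-06 in C24 and 9.38e-08 in Col-0). On a linear scale the fall of HTB2 was 14.1-fold in C24 and 13.6-fold in Col-0, and that of AUR2 was 1.53-fold and 1.81-fold. In bulk seeds, fewer dividing cells and less RNA per cell cannot be told apart.

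Such changes were common in these seeds: 30% of all probe sets were called lower at 12-13 days in C24 and 30.5% in Col-0, and 29.4% and 30.1% higher, so that being called says little about the 5 genes. Their sizes were less common. HTB2 ranked within the lowest 0.283% of all changes in C24 and 0.4% in Col-0, PRL within 0.481% and 0.542%, and AUR1 within 0.643% and 0.618%. HTB1 ranked within the lowest 3.93% and 4.12%, and AUR2 within 16.4% and 11.8%. The median change of the 5 genes was -3.21 in C24 and -3.39 in Col-0, beside 0.03 and 0.02 over all probe sets. The genes were chosen with earlier results of these data known. Their ranks and median therefore describe these genes and are no independent evidence.

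Most of the fall took place between 8-9 and 10-11 days, except that HTB2 in Col-0 fell by similar amounts in both steps. In this step AUR1 fell, with changes of -2.83 ± 0.14 in C24 and -2.40 in Col-0, PRL with -2.86 ± 0.18 in C24 and -2.51 in Col-0, and HTB2 with -2.58 ± 0.26 in C24 and -2.01 in Col-0. HTB1 fell, with changes of -1.24 ± 0.11 in C24 and -1.43 in Col-0, and AUR2 with -0.75 ± 0.09 in C24 and -0.99 in Col-0. All 5 passed in both accessions (limma, largest adjusted p 9.81e-07 in C24 and 2.94e-06 in Col-0), where 26.0% of all probe sets were called lower in C24 and 23.3% in Col-0. The step made up 88.4% of the whole log2 fall of AUR1 in C24 and 70.8% in Col-0, and 83.1% and 71.8% of that of PRL. For HTB2 the shares were 67.6% and 53.5%, the lowest of the 5 genes, and for HTB1 77.8% and 85.5%. In Col-0 the later step of HTB2 was -1.75, close to its first step beside the SE of 0.26. The shares of AUR2 were 122.5% and 115.8%, as its later changes of 0.14 were upward.

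Between 10-11 and 12-13 days the genes parted. HTB2 fell, with changes of -1.24 ± 0.26 in C24 and -1.75 in Col-0 (adjusted p = 0.00126 and 2.6e-05 by limma). PRL fell, with changes of -0.58 ± 0.18 in C24 and -0.99 in Col-0 (adjusted p = 0.0254 and 0.00034). AUR1 fell by 0.99 ± 0.14 in Col-0 (adjusted p = 1.4e-05), and its change of -0.37 in C24 missed the threshold of 0.05 (adjusted p = 0.0536). HTB1 fell by 0.35 ± 0.11 in C24 (adjusted p = 0.0265), and its change of -0.24 in Col-0 did not pass (adjusted p = 0.107) but did so without replicate 3 of Col-0 at 10-11 days, at -0.39 (adjusted p = 0.00727). AUR2 had changes of 0.14 ± 0.09 in both accessions, which did not pass (adjusted p = 0.292 in C24 and 0.256 in Col-0). Thus 3 of 5 genes were called lower in each accession, where 14.1% of all probe sets were called lower in C24 and 18.3% in Col-0. In C24 the call of HTB2 was kept without any 1 array, while that of HTB1 was lost without replicate 1 (adjusted p = 0.123) or 2 (0.0562) at 10-11 days or 2 (0.0812) or 3 (0.0865) at 12-13 days. That of PRL was lost without replicate 1 (0.10) or 2 (0.0748) at 10-11 days or 3 at 12-13 days (0.121).

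**Figure D2:**
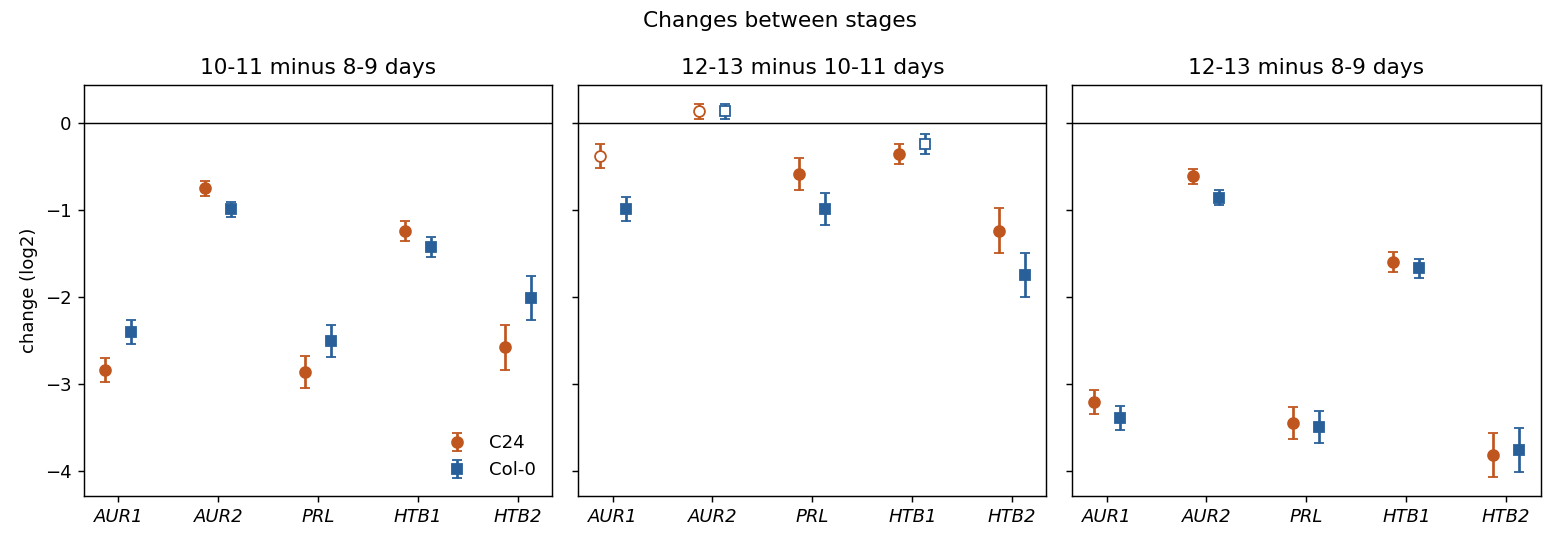
Change (log2) of the 5 genes between stages, with the SE of the model, for C24 (circles, left) and Col-0 (squares, right); filled symbols passed an adjusted p of 0.05 and open ones did not. In the first step the changes of AUR1, PRL and HTB2 lie between -2.86 and -2.01, and in the second step AUR2 lies at 0.14 in both accessions.

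In both pairs of related genes the signals of the 2 probe sets changed unequally. AUR1 minus AUR2 within an array was 0.87 ± 0.09 at 8-9, -1.22 ± 0.23 at 10-11 and -1.73 ± 0.07 at 12-13 days in C24 (mean ± SD, n = 3), and 0.71 ± 0.04, -0.70 ± 0.27 and -1.83 ± 0.13 in Col-0. The mean change over the accessions between the first 2 stages was -1.75 and between the last 2 was -0.82 (exact permutation test within accessions, two-sided, p = 0.005 in each). From stage to stage HTB1 minus HTB2 was 0.10 ± 0.28, 1.43 ± 0.51 and 2.32 ± 0.15 in C24, and -0.33 ± 0.20, 0.26 ± 0.18 and 1.76 ± 0.38 in Col-0. The direction of each difference follows from the order of subtraction and is not compared between the pairs. Its mean change was 0.96 over the first step and then 1.19 (exact permutation test, p = 0.005 in each). The value of 0.005 is the smallest that the 400 permutations can give, and after Benjamini-Hochberg adjustment over the 4 tests it stayed 0.005. Levels of different probe sets have no common scale, so that only the changes of these differences are interpreted. Whether the probe sets of a pair show a given change of transcript equally was not tested, and the p-values do not address it.

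**Figure D3:**
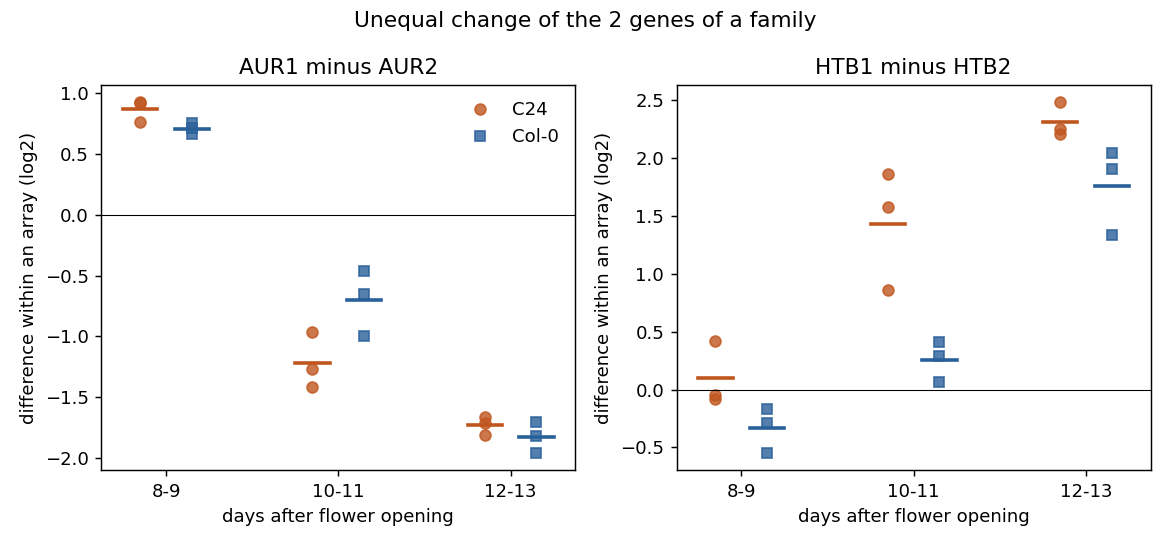
Difference between the log2 levels of AUR1 and AUR2 (left) and of HTB1 and HTB2 (right) on each array by stage, with C24 as circles left of Col-0 as squares and the mean of 3 arrays as a bar. AUR1 minus AUR2 falls from stage to stage in both accessions and HTB1 minus HTB2 rises.

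The comparison of C24 with Col-0 asked which levels differ at the same age. At all 3 stages AUR2 was lower in C24, at -0.54 ± 0.09 at 8-9, -0.30 at 10-11 and -0.30 at 12-13 days (adjusted p = 0.000194, 0.0205 and 0.0188 by limma). HTB1 was the higher in C24 throughout, by 0.35 ± 0.11, 0.53 and 0.42 (adjusted p = 0.0389, 0.00236 and 0.0114). For both genes the 3 arrays of each accession did not overlap at any stage. The share of all probe sets without overlap was not counted, so that nothing further is read from this.

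AUR1 was lower in C24 at 10-11 days, with -0.82 ± 0.14 (adjusted p = 0.00027). Its differences of -0.38 at 8-9 days and -0.20 at 12-13 days did not pass (adjusted p = 0.0582 and 0.339). PRL had a difference of -0.54 ± 0.18 at 10-11 days that missed the threshold (adjusted p = 0.0505), with -0.18 and -0.13 at the earlier and the later stage (0.562 and 0.678). HTB2 had -0.65 ± 0.26 at 10-11 days (0.0883), and -0.09 and -0.14 at 8-9 and 12-13 days (0.868 and 0.763).

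In all, 2 of 5 genes passed at 8-9 days, 3 at 10-11 days and 2 at 12-13 days, where 19.5%, 19.1% and 23.0% of all probe sets passed in either direction. Replicates 2 and 3 of Col-0 at 10-11 days stood at opposite ends of their group. Replicate 2 lay at -1.14 on the first principal component, with AUR1 at 6.45, PRL at 6.14 and HTB2 at 7.29. Replicate 3 lay at 15.7, closer to the C24 arrays at 22.1 to 27.4, with 5.79, 5.50 and 6.47. Without replicate 3 all 5 genes passed at 10-11 days, PRL with -0.68 (adjusted p = 0.0222) and HTB2 with -0.87 (0.031). In that refit 3399 of 19755 probe sets passed, beside 3783 with all arrays. Without replicate 1 of C24 at 10-11 days HTB2 passed with -1.01 (0.00407). The part of the position along the first component in these differences was not tested.

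The calls of AUR2 at 10-11 days were lost without any 1 of 4 arrays (adjusted p of 0.0609 to 0.0845), and at 12-13 days without any 1 of 3 (0.0534 to 0.0866). The call of HTB1 at 8-9 days was lost without any 1 of 5 arrays (0.0639 to 0.154) and with arrays centred on their medians (0.0645), and at 12-13 days without replicate 3 of Col-0 (0.0554) or C24 replicate 1 (0.0547). The difference of AUR2 at 8-9 days, that of HTB1 at 10-11 days and that of AUR1 at 10-11 days passed under every alternative run.

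**Figure D4:**
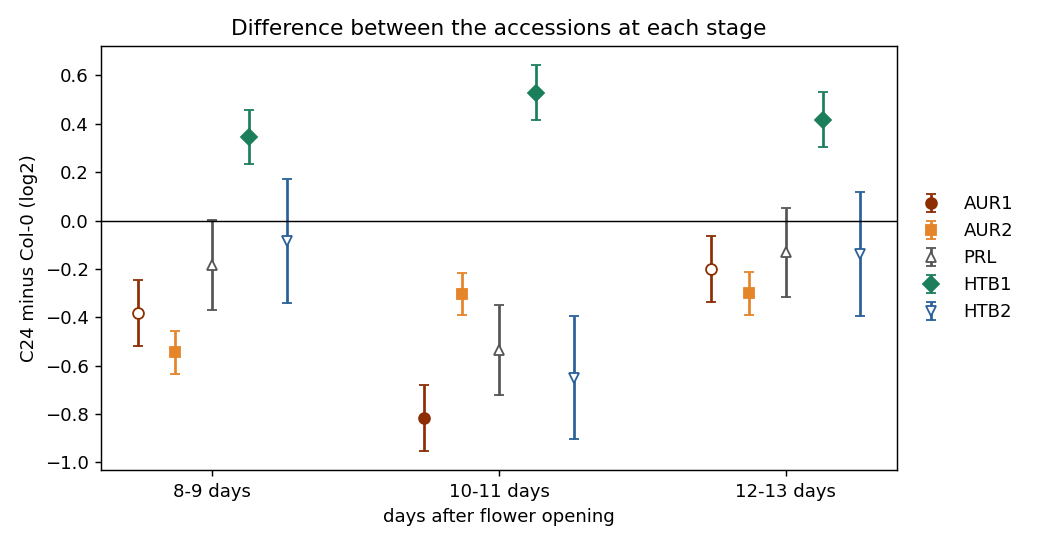
C24 minus Col-0 (log2) for each gene at each stage, with the SE of the model; filled symbols passed an adjusted p of 0.05 and open ones did not. HTB1 lies at 0.35 to 0.53 at every stage, and the other genes lie below 0, with AUR1 lowest at -0.82 at 10-11 days.

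Whether the accessions changed unequally was tested as the C24 change minus the Col-0 change. None of the 5 genes passed in the first step, the second step or the whole span by limma, where 8.12%, 8.27% and 10.6% of all probe sets did. The share of all probe sets at an unadjusted p under 0.05 was not counted, so that nothing is read from the following count. At that threshold 1 of 5 genes passed in each step and 0 over the whole span. This was AUR1, with -0.43 ± 0.19 in the first step (limma, adjusted p = 0.201) and then 0.62 ± 0.19 (limma, adjusted p = 0.057). Over the whole span its difference was 0.18 ± 0.19. The steps share the arrays at 10-11 days, so that these opposite signs are not independent. PRL and HTB2 had -0.35 and -0.56 in the first step, then 0.40 and 0.51 (smallest adjusted p 0.39). AUR1 passed in the second step after a second quantile normalization (adjusted p = 0.0499), without the dimmest 30% of probe sets (0.0462) and without replicate 3 of Col-0 at 10-11 days (0.81, adjusted p = 0.00461). It also passed there without C24 replicate 3 at 10-11 days (0.0305) or C24 replicate 2 at 12-13 days (0.0474), and in the first step without replicate 3 of Col-0 at 10-11 days (-0.62, adjusted p = 0.0235).

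Likeness between profiles was measured as the root mean square difference over the 6 group means, each gene centred on its own mean. AUR1 and PRL differed by 0.12 on the log2 scale, PRL and HTB2 by 0.29 and AUR1 and HTB2 by 0.35. AUR1 and AUR2 differed by 1.08, and HTB1 and HTB2 by 0.97. AUR1, AUR2, HTB1 and HTB2 each had a gene of another family closer than the relative. For AUR2 this was HTB1 alone, at 0.55, while PRL (1.14) and HTB2 (1.26) were farther from it than AUR1. Among the 11763 single-gene probe sets, the nearest to PRL was 3xHMG-box2 at 0.07, an HMG-box protein that binds chromosomes in mitosis, followed by AT5G17160 and AT4G15830, both at 0.12. The nearest to AUR1 were AT3G02120 (0.09), AT5G17160 (0.10) and AT4G15830 (0.12), so that PRL and AUR1 shared 2 of their 3 nearest genes. The nearest to HTB2 were AT5G16250 (0.10), AT1G15290 (0.14) and AT3G06840 (0.14). HTB1 was nearest to HOS3-1 (0.07), AT2G21510 (0.11) and AT1G60160 (0.13). AUR2 was nearest to AT4G26370 (0.08), AT2G24550 (0.09) and PSF2 (0.10), which encodes a subunit of the GINS complex of the replication fork.

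Related genes were taken from lists drawn up by role, from background knowledge of the loci, with 133 genes of which only 21 were annotated, the 5 genes among them. Over the whole span 15 of the 21 fell and 4 rose in C24, and 15 fell and 5 rose in Col-0. Of all probe sets 30% were called lower and 29.4% higher in C24, and 30.5% and 30.1% in Col-0, so that the numbers that rose are no more than the share over all probe sets. The median change of the other 16 was -0.76 in C24 and -0.53 in Col-0, beside 0.03 and 0.02 over all probe sets. Of these 16, 10 fell in each accession. The lists were drawn up with earlier results of these data known, so that these counts are no independent evidence.

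All 3 Aurora kinases fell. AUR3, which belongs to the beta group that acts at centromeres, fell, with changes of -2.22 ± 0.09 in C24 and -2.23 in Col-0, a change between those of AUR1 and AUR2. It reached 4.00 in C24 and 3.86 in Col-0 at 12-13 days, below the lowest 25th percentile, so that its fall can be understated. Among partners of the Aurora kinases, WYR, the plant counterpart of INCENP, fell, with changes of -0.94 ± 0.14 in C24 and -0.62 in Col-0. Its level at 8-9 days was 5.04 in C24 and 4.84 in Col-0, and later means were between 4.07 and 4.22. AT4G39630 of the mitosis list fell, with changes of -1.03 ± 0.12 in C24 and -1.18 in Col-0, and BUBR1, a spindle checkpoint gene, with -0.48 ± 0.10 in C24 and -0.40 in Col-0. BUBR1 and WYR were near or below the 25th percentile at 12-13 days, BUBR1 at 4.39 in C24 and 4.49 in Col-0, so that their changes can be understated. HTR12, the centromeric histone H3, fell, with changes of -1.39 ± 0.14 in C24 and -2.02 in Col-0.

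Of 8 annotated histone H2B loci 5 fell in each accession, HTB1 and HTB2 among them, and 2 rose in C24 and 3 in Col-0. Of all probe sets 30% were called lower in C24 and 30.5% in Col-0. The loci come from a list drawn up with earlier results known, so that the number that fell is no independent evidence. The numbers that rose are near the 29.4% and 30.1% of all probe sets called higher, and nothing is read from them. HTB4 fell, with changes of -0.98 ± 0.07 in C24 and -0.43 in Col-0 and stayed at high levels, with 9.67 in C24 and 10.4 in Col-0 at 12-13 days. AT2G28720 rose by 0.37 ± 0.12 in C24 and 1.76 in Col-0. Its level was 5.07, 4.67 and 5.44 at the 3 stages in C24 and 4.71, 5.19 and 6.46 in Col-0. The other 4 loci of this list were named after their values were seen. AT2G37470 fell, with changes of -2.43 ± 0.14 in C24 and -2.37 in Col-0, and AT3G09480 with -2.24 ± 0.10 in C24 and -1.79 in Col-0. AT1G08170 rose by 0.29 ± 0.12 in C24 and 0.39 in Col-0, and AT5G02570 by 0.27 ± 0.11 in Col-0, with a change of 0.04 in C24 that did not pass. In C24 the call of AT2G28720 was lost without any 1 of 3 arrays (adjusted p of 0.0501 to 0.0561 by limma). That of AT1G08170 in C24 was lost without any 1 of 5 (0.0548 to 0.168) and after a second quantile normalization (0.066). That of AT5G02570 in Col-0 was lost without any 1 of 3 (0.077 to 0.131) and after a second quantile normalization (0.050029). AT1G08170 and AT5G02570 lay at 4.23 to 5.24 in all group means, near the 25th percentile. H2B genes are close in sequence, and the sources used here do not say whether a probe matches a single gene, so that signal shared between copies cannot be told apart.

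Replication genes other than PRL were few in the annotation, and PRL was the only 1 of 6 MCM genes. ICU2, the catalytic subunit of DNA polymerase alpha, fell, with changes of -0.99 ± 0.10 in C24 and -0.67 in Col-0, and its levels at 8-9 days, 4.94 in C24 and 4.57 in Col-0, were close to the 25th percentile. At 12-13 days it was at 3.95 in C24 and 3.90 in Col-0, below it, so that its change can be understated. PSF2 fell, with changes of -0.58 ± 0.18 in C24 and -1.14 in Col-0. Its call in C24 was lost without replicate 1 at 8-9 days (limma, adjusted p = 0.0564). AT5G26680 rose by 0.54 ± 0.09 in C24 and 0.58 in Col-0, and AT1G07270 had changes of -0.05 and -0.15 that did not pass. AT1G07270 lay at 4.55 to 4.77 in all group means, near the 25th percentile. SIM, an inhibitor of cyclin-dependent kinases that promotes endoreduplication, rose by 0.44 ± 0.10 in each accession. None of 16 genes on a list of S phase entry, with cyclins and E2F factors, was annotated.

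**Figure D5:**
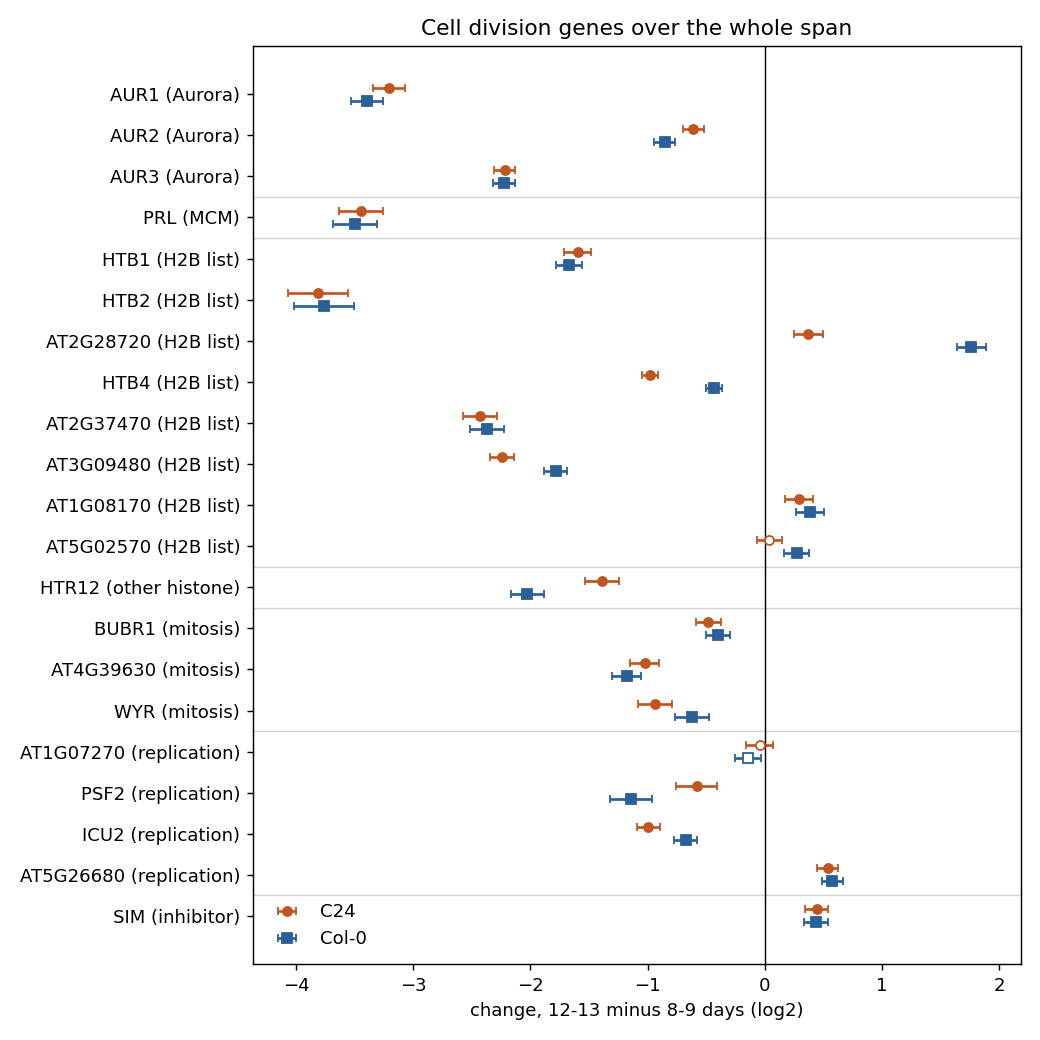
Change (log2) between 12-13 and 8-9 days for the 21 annotated cell division genes, grouped by list, with the SE of the model, for C24 (circles, above) and Col-0 (squares, below); filled symbols passed an adjusted p of 0.05 and open ones did not. HTB2 has the lowest change, at -3.81 in C24, and AT2G28720 the highest, at 1.76 in Col-0.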

How the data were processed

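Values are log2 levels per probe set of Affymetrix ATH1 arrays, in the table the authors deposited. Per the labels, the authors kept probes identical in both genomes and matching a representative gene model, and 3 probes was the least a probe set could have, and the build in the submitters' processing notes is TAIR10. The sources used here do not give the background correction, normalization or software. The table was used as deposited, without its 11 control probe sets and with no filter. Genes were named by the platform annotation, with loci from a RefSeq table of another assembly version, so that no coordinates are printed. No sequence table was used here.

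With limma 3.58.1 in R 4.3.3, 1 mean per group was estimated from the 18 arrays (12 residual and 5.8 prior degrees of freedom), and 12 comparisons were drawn from it. P-values were adjusted by Benjamini-Hochberg across the 19755 probe sets, with a threshold of 0.05. Differences within arrays were tested by exact permutation. The number of arrays limits the precision. The model was tested on simulated data.

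The named genes were the 5 members, up to 4 annotated genes of each list in list order, and the 3 probe sets nearest to each member. The 4 further H2B loci were named outside this rule, after their values were seen. Members and lists were chosen with earlier results of these data known. Over all probe sets, same-numbered arrays of different groups did not deviate together (median correlation 0.02, from -0.21 to 0.21). The main model therefore did not pair arrays by number. Pairing for single genes was not tested, and a correlation over all probe sets cannot decide it. The alternatives tried were a second quantile normalization, centred arrays, a trended and robust prior variance, a model of only the groups compared, a filter on dim probe sets, the replicate number as a block, and leaving out each array.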

Additional observations from a re-analysis of the deposited data

Results flagged for a closer look

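For AUR1, AUR2, PRL, HTB1 and HTB2 no difference between the accessions in the change over a step or the whole span passed the threshold, except that AUR1 did so under some alternatives. Of the other genes named, some passed, each by limma's test of the C24 change minus the Col-0 change. In the H2B list AT2G28720 had -0.88 ± 0.17 in the first step (adjusted p = 0.00333) and -1.39 over the whole span (2.98e-05), HTB4 had -0.54 ± 0.10 over the whole span (0.000941), and AT3G09480 had -0.46 ± 0.14 (0.044). The last of these was lost after a second quantile normalization (0.0546), with centred arrays (0.0651), with a trended and robust prior variance (0.0701), and without any 1 of 8 arrays (0.0543 to 0.104).

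Among the genes with the nearest profiles, AT4G15830 had 0.84 ± 0.18 (adjusted p = 0.00906) and AT3G02120 0.70 ± 0.21 (0.046) in the second step. They were chosen for profiles like that of AUR1 over the same group means, so that a value like that of AUR1 is no independent evidence. AT3G02120 lost its call with the replicate number as a block (0.0578), with only the groups compared (0.0834) and without any 1 of 7 arrays (0.0658 to 0.132). AT4G26370, chosen in the same way for AUR2, had 0.52 ± 0.11 in the first step (0.00688) and 0.49 over the whole span (0.00851). At 10-11 and 12-13 days its means were 4.30 and 4.45 in C24 and 4.46 and 4.64 in Col-0. These lay near or below the 25th percentile, so that its changes can be understated. The steps share the arrays at 10-11 days.

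Over the whole span 3 of the 4 annotated seed coat genes fell less in C24, where 10.6% of all probe sets passed in either direction. ARA12 did not pass this test. AT3G50990 had 1.20 ± 0.25 in the first step (adjusted p = 0.00458) and 1.79 over the whole span (8.08e-05), and DFR had 0.57 ± 0.14 (0.0154) and 0.72 (0.00214). BAN had 1.08 ± 0.23 in the second step (0.00715) and 1.70 over the whole span (6.22e-05).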

How the results depend on the processing

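Of 810 refits of their 60 results, 766 kept their side of the threshold, 22 lost a call, 22 gained one and 0 reversed. All 5 genes fell over the first step and the whole span under every alternative. Leaving out 1 array in turn gave counts of the 5 genes called of 1 to 2 at 8-9, 2 to 5 at 10-11 and 1 to 2 at 12-13 days between the accessions. Of 19755 probe sets 2814 to 3698, 2759 to 3433 and 3627 to 4372 passed in these refits. In the second step the counts of the 5 genes were 1 to 3 in C24 and 3 to 4 in Col-0. There 4117 to 4822 probe sets passed in C24 and 5685 to 7040 in Col-0. For the difference of the accessions' changes the counts of the 5 genes were 0 to 1 in each step. In the first step 1095 to 1695 probe sets passed for this difference. Of the 21 cell division genes, main counts of 5, 5 and 7 became 2 to 3 at 8-9 days, 4 to 8 at 10-11 days and 4 to 8 in the second step of C24, and counts of 1 and 0 for the difference of the accessions' changes became 1 to 3 in the first and 0 to 2 in the second step. Over all probe sets, 1634 passed for the difference in the second step, and 1040 to 1767 with 1 array left out, the lowest without replicate 2 of Col-0 at 10-11 days. After a second quantile normalization the count for the second step was 1 of the 5 genes and 1 of the 21. Without the dimmest 30% of probe sets it was also 1 and 1, AUR1 in each case. Of all probe sets 1696 of 19755 and 1609 of 13828 passed in these refits. For the first step, 2 of the 21 passed after a second quantile normalization and 2 with the replicate block. Here 1580 and 1578 of 19755 probe sets passed.

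Of the other alternatives, PRL at 10-11 days (adjusted p = 0.0505) passed with the replicate block (0.0255), a second quantile normalization (0.0464), a trended and robust prior variance (0.0405), without dim probe sets (0.0376) and with only the groups compared (0.0448). AUR1 at 8-9 days (0.0582) passed with centred arrays (0.0356), without dim probe sets (0.0481) and with only the groups compared (0.0164). In the second step of C24, AUR1 (0.0536) passed after a second quantile normalization (0.0396), without dim probe sets (0.0422) and with only the groups compared (0.0425). With the replicate number as a block no other call of the 5 genes changed, and 7 of 18 arrays correlated best with their own number. The 4 within-array results kept their call under every alternative, where an exact permutation test by replicate number gave p = 0.03125, the smallest it allows. The causes of these changes were not tested.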
